A study of Homo sapiens with 27 samples.

Results

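Clone B, a Panc1 line in which ARNT was knocked out, was compared with the parental Panc1 cells under hypoxia. The 6 libraries were chosen by their labels: 3 of clone B and 3 of parental cells, of 27 libraries in the series. Panc1 is an established human pancreatic ductal adenocarcinoma line. Both groups were kept for 48 hours at 1% O2 in regular medium, which is DMEM with 10% FBS and 1% P/S. They differed by the label ARNT KO Clone B, a single clone made with CRISPR-Cas9, against parental. Loss of ARNT and descent from 1 clone cannot be told apart in this comparison, because none of its groups is a clone with ARNT intact. Clone B and parental cells in normoxia (20% O2, regular medium) and clone A, an independently derived ARNT knockout clone, in hypoxia (1% O2, regular medium) are used below only to place the comparison, with 3 libraries each. All 21487 genes of the table belong to the comparison, and 13943 of them had enough counts to be tested.

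ARNT, also called HIF1B, is the constitutive partner subunit of the hypoxia-inducible factors. When oxygen is low, the alpha subunits HIF1A and EPAS1 are no longer hydroxylated by the EGLN enzymes and marked for degradation by VHL. They then pair with ARNT and bind hypoxia response elements at genes for glucose uptake, glycolysis, lactate export, vessel growth and collagen modification. ARNT is also the partner of the aryl hydrocarbon receptor AHR, whose targets include the cytochrome P450 genes CYP1A1 and CYP1B1.

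PolyA RNA was sequenced, and levels are given as CPM, counts scaled to a common library size. Totals were 31285542 to 38341713 counts in the 6 libraries. The biological coefficient of variation was 5.01% in the parental libraries and 10% in those of clone B. Replicate 1 of clone B stood apart from the other two: counts differed from replicates 2 and 3 by a chi-square per degree of freedom of 20.2 and 27.8, against 13.3 between replicates 2 and 3 and 6.35 to 9.45 among the parental libraries. Without replicate 1 of clone B, 4240 genes were called between the groups, against 5006 with all 6 libraries. The labels do not say whether the replicates were separate cultures, so p-values measure the spread between libraries only. That spread was estimated over all 27 libraries of the series, whose biological coefficient of variation was 14.1%. With only the 6 compared libraries in the fit, 7379 genes were called. The epithelial keratins KRT8 (4231 to 5535 CPM) and KRT18 (1743 to 2531 CPM) were high in all 6 libraries, and the ductal keratin KRT19 was at 883 to 922 CPM in parental cells and 600 to 624 CPM in clone B (adjusted p = 0.0287 with all libraries, 0.0531 to 0.0759 without any 1 of the 6). The ductal keratin KRT7 was low in both groups, at 6.13 to 7.06 CPM in parental cells and 5.95 to 6.53 CPM in clone B. Defining genes of other pancreatic cells (INS, GCG, SST, PRSS1, CPA1, AMY2A), of blood cells (PTPRC) and of endothelium (CDH5) were at or near 0. The endothelial gene PECAM1 was at 0.201 to 0.477 CPM in parental cells and 0.476 to 0.965 CPM in clone B. Some genes that every cell uses are also at or near 0 in the deposited table, such as SDHA and CDK2 at 0 counts and LDHB at 3 counts over the 6 libraries, so a gene listed at 0 here is not shown to be silent.

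In hypoxia, clone B and parental cells differed in 5006 genes (35.9% of the 13943 tested), of which 2355 (16.9%) were higher and 2651 (19%) lower in clone B. Calls rest on edgeR's quasi-likelihood test, with p-values adjusted by Benjamini-Hochberg over all tested genes and a threshold of 0.05. At least 2-fold differences were called for 1853 genes (13.3%), 784 higher (5.62%) and 1069 lower (7.67%). The 3 libraries of each group did not overlap for 8473 genes (60.8%). The median log2 difference over all tested genes was 0.01. Among the lower genes were 68 of 92 tested HIF targets and 294 of 446 tested genes on chromosome 15.

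ARNT itself (chr1:150809705-150876768, minus strand, GRCh38) was read at 74.1, 67.5 and 72.6 CPM in the parental libraries and at 67.5, 61.6 and 65.3 CPM in those of clone B. The parental libraries were the higher ones, the lowest of them at 67.52 CPM against 67.49 CPM in the highest of clone B, and the difference did not pass (log2 −0.14 ± 0.09 SE, adjusted p = 0.217). The position of the edit is not given in the sources used here, and a count over the whole gene does not read an edit of a few bases, so this value does not check the knockout.

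The close paralog ARNT2 (chr15:80404350-80597937) was nearly lost. It stood at 13.5, 14.1 and 13.8 CPM in parental cells and at 1.06, 0.773 and 1.05 CPM in clone B, a log2 difference of −3.83 ± 0.23 (adjusted p = 6.12e-13). The groups were far apart, and the difference was as large in normoxia (−4.19 ± 0.23). HIF1A, the oxygen-regulated alpha subunit, moved the other way. Its mRNA was at 128, 125 and 117 CPM in parental cells and at 327, 320 and 357 CPM in clone B (log2 1.44 ± 0.16, adjusted p = 7.46e-08). In normoxia the means were 197 ± 18 (SD, n = 3) in parental cells and 197 ± 3.38 in clone B, so the difference was present under hypoxia, and the test of hypoxia against normoxia passed (1.44 ± 0.23, adjusted p = 0.000159). EPAS1, which encodes the HIF-2 alpha subunit, was at 478 to 526 CPM in parental cells and 390 to 486 CPM in clone B and did not pass (−0.20 ± 0.13, adjusted p = 0.268). It passed when the fit held the 18 libraries in regular medium (adjusted p = 0.02) or the compared libraries alone (0.0358). In normoxia EPAS1 was higher in clone B, at means of 250.4 CPM in parental cells and 389 CPM in clone B (0.64 ± 0.13, adjusted p = 0.000681), and the response difference passed (−0.83 ± 0.19, adjusted p = 0.0083).

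Of 10 tested genes of HIF subunits and related PAS-domain partners, 5 were higher and 1 lower (all tested genes: 16.9% higher, 19% lower). Besides HIF1A, the higher ones were NPAS2 (1.18 ± 0.16), ARNTL2 (0.84 ± 0.13) and ARNTL (0.55 ± 0.16), partners in the circadian clock, and AHR (0.78 ± 0.29), which had under 3 CPM in each library, shared 29.4% of its exonic length with another gene and lost its call without replicate 1 of clone B (0.44, adjusted p = 0.298) or without any 1 parental library (adjusted p up to 0.127). SIM2 and CLOCK, further members of this family, were at −0.23 ± 0.12 and −0.11 ± 0.23 and did not pass. Among the 4 tested genes of the oxygen-sensing hydroxylases and VHL, the call went to EGLN3, the prolyl hydroxylase that is itself a HIF target. EGLN3 was at 41.9, 42.9 and 40.1 CPM in parental cells and at 0.559, 0.565 and 0.800 CPM in clone B (−6.01 ± 0.21, adjusted p = 3.83e-17). VHL (−0.13 ± 0.09), HIF1AN, which encodes the asparaginyl hydroxylase FIH (0.18 ± 0.12), and P4HTM (0.19 ± 0.17) did not pass. EGLN1, with 28 counts over the 6 libraries, and EGLN2, listed at 0, were not tested.

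**Figure D1:**
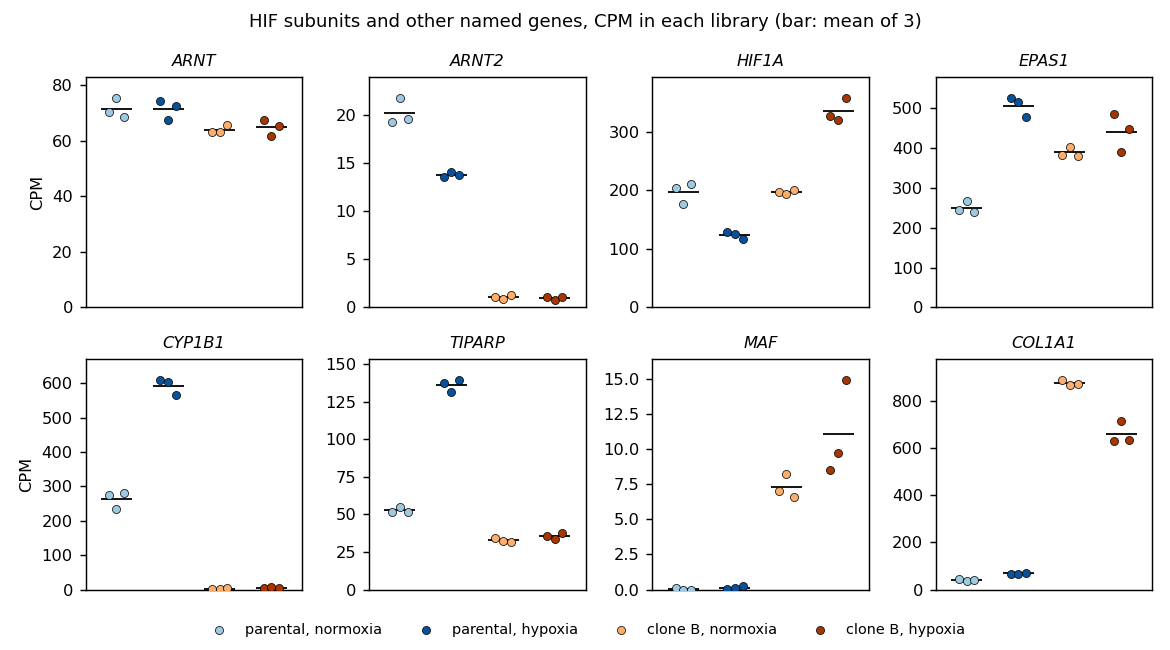
CPM on linear axes from 0 in each library of parental and clone B cells in normoxia and hypoxia for 8 named genes; points are libraries and bars are means of 3. ARNT is near 60 to 75 CPM in all 4 groups, ARNT2 and CYP1B1 are low in clone B in both oxygen levels, HIF1A is highest in clone B in hypoxia, and MAF and COL1A1 are high in clone B in both.

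HIF targets were lower in clone B as a group. The 5 lists of HIF targets hold 99 genes, of which 92 were tested. Of these, 68 were lower (all tested genes: 19%), 7 were higher (all tested genes: 16.9%) and 17 did not pass, with a median log2 difference of −1.14 against 0.01 over all tested genes. Of the 68, 54 were lower by at least 2-fold (all tested genes: 7.67%), and 65 lie outside chromosome 15, where 89 members were tested. The 3 libraries of each group did not overlap for 81 of the 92 (all tested genes: 60.8%).

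The promoters of 4 HIF targets with large falls are shown to let the core letters of HIF elements be seen in place. Each is the 250 bases before the transcription start, 5′ to 3′ on the gene's strand, from RefSeq (GRCh38.p14). Capitals mark ACGTG, the common core of the hypoxia response element, or its variant GCGTG. A match on the opposite strand appears as the reverse complement. The variant is also the core of the AHR element, so a match to it does not tell these apart. The windows are IGFBP3 at chr7:45921273-45921522 (minus strand), PFKFB4 at chr3:48556804-48557053 (minus), ANGPTL4 at chr19:8363905-8364154 (plus) and HK2 at chr2:74833877-74834126 (plus).
IGFBP3: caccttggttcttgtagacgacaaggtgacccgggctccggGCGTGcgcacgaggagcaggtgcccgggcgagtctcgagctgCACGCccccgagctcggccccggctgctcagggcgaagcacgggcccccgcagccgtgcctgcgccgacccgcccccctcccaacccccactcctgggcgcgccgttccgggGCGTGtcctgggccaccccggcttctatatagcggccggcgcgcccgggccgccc
PFKFB4: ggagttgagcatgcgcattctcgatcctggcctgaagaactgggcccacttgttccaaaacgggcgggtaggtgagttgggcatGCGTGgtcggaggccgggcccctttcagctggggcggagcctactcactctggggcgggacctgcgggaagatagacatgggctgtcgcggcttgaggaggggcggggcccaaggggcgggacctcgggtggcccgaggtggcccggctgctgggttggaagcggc
ANGPTL4: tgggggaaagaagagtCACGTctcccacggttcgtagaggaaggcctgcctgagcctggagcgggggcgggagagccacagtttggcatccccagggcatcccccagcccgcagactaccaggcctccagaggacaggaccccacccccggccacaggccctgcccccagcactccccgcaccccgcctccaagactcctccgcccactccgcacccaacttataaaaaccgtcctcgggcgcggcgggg
HK2: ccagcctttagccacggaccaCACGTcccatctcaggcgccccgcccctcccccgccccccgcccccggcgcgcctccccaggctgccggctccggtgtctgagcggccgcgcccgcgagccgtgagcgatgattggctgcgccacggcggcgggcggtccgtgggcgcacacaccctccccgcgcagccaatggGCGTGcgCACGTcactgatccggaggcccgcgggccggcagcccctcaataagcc

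The IGFBP3 window holds 3 matches to GCGTG and 0 to ACGTG, and the PFKFB4 window holds 1 and 0. The ANGPTL4 window holds 0 matches to GCGTG and 1 to ACGTG, and that of HK2 holds 1 and 2. Across all 35116 windows of this length in the table, 18.5% hold ACGTG, 32.2% hold GCGTG and 43.2% hold either, on either strand. Among the 15736 windows of tested genes the shares were 21.6%, 42.1% and 53.5%. The 68 lower HIF list members had windows for 58 genes, 89 windows in all, of which 42.7% hold ACGTG, 50.6% hold GCGTG and 69.7% hold either. The 15 members that were not lower and had windows gave 34, with 29.4%, 41.2% and 52.9%. These are counts of letters, not of binding. They are taken over windows, so a gene with several windows counts more than once. The lists were made of HIF targets, and whether the letters bear on the falls was not tested. CYP1B1 had no entry.

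The 4 genes behind these windows differed strongly. IGFBP3, a secreted binder of insulin-like growth factors, was at 91.2, 92.4 and 93.8 CPM in parental cells and at 3.77, 2.62 and 2.70 CPM in clone B (−4.93 ± 0.33, adjusted p = 5.41e-12). PFKFB4, which makes the activator of phosphofructokinase, was at 109, 107 and 118 CPM in parental cells and at 10.4, 12.4 and 11.6 CPM in clone B (−3.28 ± 0.17, adjusted p = 5.31e-14). Both were separated without overlap. ANGPTL4, a secreted inhibitor of lipoprotein lipase, was at 195, 196 and 209 CPM in parental cells. In clone B it was at 37.0, 14.9 and 14.3 CPM, replicate 1 being the high one (−3.18 ± 0.29, adjusted p = 1.41e-09). HK2, the hexokinase of the first step of glycolysis, was at 62.9, 49.98 and 63.4 CPM in parental cells and at 9.07, 6.78 and 6.40 CPM in clone B (−2.99 ± 0.17, adjusted p = 4.33e-13). In normoxia IGFBP3 was also lower in clone B (−2.73 ± 0.34), and PFKFB4, ANGPTL4 and HK2 did not pass.

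**Figure D2:**
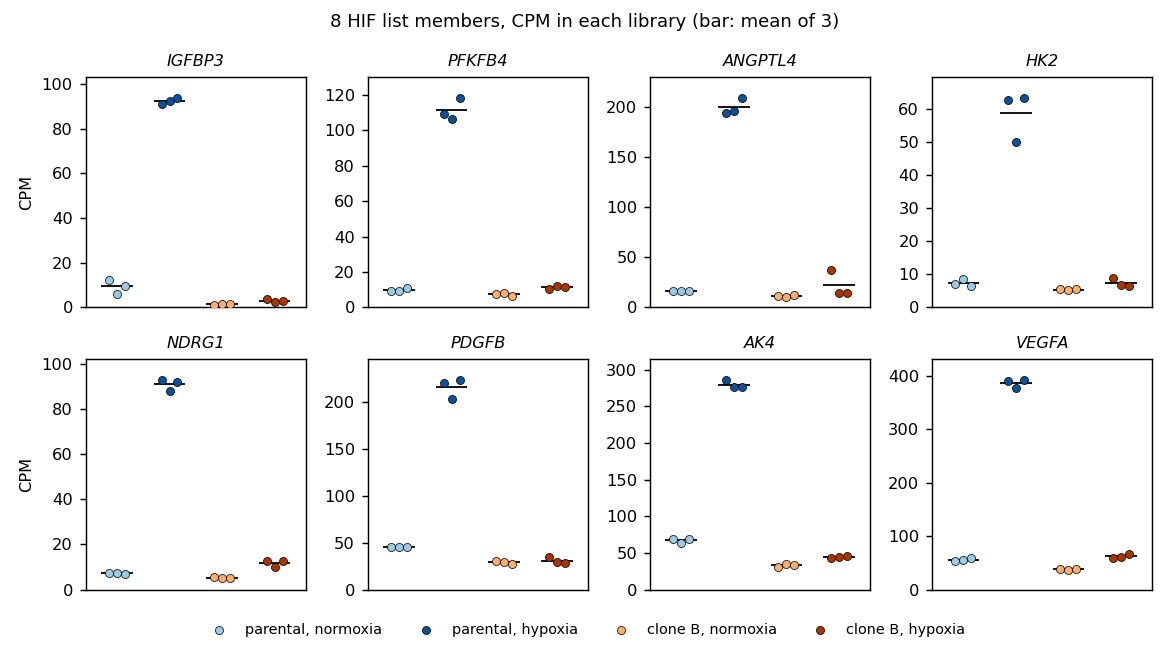
CPM on linear axes from 0 in each library for the 8 lower HIF list members with the largest falls among those at 50 CPM or more in parental hypoxia; points are libraries and bars are means of 3. In every panel the 3 parental hypoxia libraries stand above all others, and the clone B hypoxia libraries lie near the normoxia levels.

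Along glycolysis, 16 of 19 tested genes were lower and 0 were higher (all tested genes: 19% lower, 16.9% higher), with a median of −1.24. The list summed to 24840 to 25240 CPM in the parental libraries and 11800 to 13120 CPM in those of clone B. The glucose transporter SLC2A1 was at 134, 128 and 154 CPM in parental cells and at 28.7, 25.5 and 26.5 CPM in clone B (−2.37 ± 0.16, adjusted p = 3.59e-12). LDHA, which turns pyruvate into lactate, was at 5556 to 6010 CPM in parental cells and 1584 to 1808 CPM in clone B (−1.74 ± 0.11, adjusted p = 2.12e-12). PGK1 (−1.66 ± 0.13), ENO2 (−1.69 ± 0.12) and GAPDH (−1.20 ± 0.17), enzymes of the later steps, were also lower. The exceptions were ENO1 (−0.17 ± 0.16, adjusted p = 0.453, and 0.0411 with the compared libraries alone), PFKM and PFKFB2, which did not pass. SLC2A3, a second transporter, was also lower, at 1.86 to 2.49 CPM in parental cells.

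Genes that steer pyruvate split in direction: 7 of 15 were lower and 4 higher (all tested genes: 19% lower, 16.9% higher), with a median of 0.02. The lower ones include the pyruvate dehydrogenase kinases, which shut pyruvate out of the mitochondrial cycle. PDK1 was at 179, 162 and 184 CPM in parental cells and at 39.8, 38.4 and 34.9 CPM in clone B (−2.21 ± 0.17, adjusted p = 5.25e-11), and PDK3 at 40.2, 33.8 and 32.5 against 2.21, 2.32 and 2.81 CPM (−3.85 ± 0.19, adjusted p = 1.48e-14). The 4 higher genes work in the opposite sense: the mitochondrial pyruvate carrier subunits MPC1 (1.44 ± 0.13) and MPC2 (0.51 ± 0.10, 22.5% of its exonic length shared) and the pyruvate dehydrogenase phosphatases PDP1 (0.71 ± 0.12) and PDP2 (0.38 ± 0.14). PDP2 lost its call without any 1 of 5 of the 6 libraries. In normoxia MPC1 (1.19 ± 0.13), PDP1 (0.51 ± 0.12) and PDP2 (0.49 ± 0.14) were also higher in clone B, and MPC2 (0.17 ± 0.10) did not pass. The response difference did not pass for any of these 4 genes. PDK3 was also lower in clone B in normoxia (−2.79 ± 0.19), and PDK1 did not pass there (−0.04 ± 0.17). The response difference passed for both kinases (PDK3 −1.06 ± 0.26, PDK1 −2.18 ± 0.23). The lactate exporter SLC16A3 was lower (−1.18 ± 0.21), as was the carbonic anhydrase CA12 (−1.61 ± 0.19, on chromosome 15). CA9, a widely used hypoxia marker, was at 0.843 to 1.08 CPM in parental cells and at 0, 0.0297 and 0.193 CPM in clone B (−3.56 ± 0.70, adjusted p = 0.000275), with 38.5% of its exonic length shared with another gene.

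In glycogen turnover, 6 of 11 genes were lower and 2 higher (all tested genes: 19% lower, 16.9% higher). GBE1, the branching enzyme, was at 172 to 189 CPM in parental cells and 82.5 to 82.7 CPM in clone B (−1.12 ± 0.09, adjusted p = 1.58e-10), and the liver-type phosphorylase PYGL was lower by a similar amount (−1.11 ± 0.10). The brain-type phosphorylase PYGB (0.79 ± 0.14) and the primer protein GYG1 (0.78 ± 0.11) were higher. In normoxia PYGB was also higher in clone B (0.86 ± 0.14), and GYG1 did not pass (0.06 ± 0.11). PPP1R3C, a scaffold that targets a phosphatase to glycogen, was at 57.0, 64.0 and 52.0 CPM in parental cells and at 21.1, 20.2 and 23.6 CPM in clone B (−1.41 ± 0.21), although in normoxia clone B stood above parental cells (25.4 against 4.66 CPM, log2 2.45 ± 0.23).

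Of 13 tested genes for secreted and vessel-directed HIF targets, 9 were lower and 1 higher (all tested genes: 19% lower, 16.9% higher). The list summed to 3436 to 3971 CPM in the parental libraries, and to 3555 CPM in replicate 1 of clone B against 1977 and 1737 CPM in replicates 2 and 3. Without replicate 1 the counts were again 9 and 1. VEGFA, the vascular growth factor, was at 390, 376 and 392 CPM in parental cells and at 58.3, 61.8 and 67.1 CPM in clone B (−2.63 ± 0.14, adjusted p = 8.53e-14). The platelet-derived growth factor gene PDGFB was at 203 to 223 CPM in parental cells and 28.1 to 34.3 CPM in clone B (−2.81 ± 0.15, adjusted p = 8.53e-14). ADM, which encodes the vasodilator adrenomedullin, was lower by less (−0.59 ± 0.14, adjusted p = 0.00124). EDN1, the vasoconstrictor endothelin, was the higher member, at 17.4, 19.8 and 20.3 CPM in parental cells and at 47.5, 33.4 and 32.7 CPM in clone B (0.98 ± 0.19, adjusted p = 0.000158). EDN1 was also higher in clone B in normoxia (1.62 ± 0.19), and in clone A in hypoxia it was lower than in parental cells (−0.63 ± 0.19).

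Among 34 other HIF targets, 30 were lower and 0 higher (all tested genes: 19% lower, 16.9% higher), with a median of −1.26. NDRG1, a stress-induced growth regulator, was at 88.0 to 92.8 CPM in parental cells and 10.2 to 12.6 CPM in clone B (−2.95 ± 0.18, adjusted p = 6.41e-13). AK4, a mitochondrial adenylate kinase, was at 276 to 286 CPM against 42.9 to 46.2 CPM (−2.66 ± 0.12, adjusted p = 4.02e-15). The mitophagy receptor BNIP3 (−1.86 ± 0.09), the collagen hydroxylases P4HA1 (−1.40 ± 0.13) and PLOD2 (−2.08 ± 0.21), and the lipid droplet protein HILPDA (−2.59 ± 0.14) were also lower. LOX, JMJD6, RNF24 and CXCR4 did not pass. LOX and CXCR4 were close between the groups in hypoxia (0.31 ± 0.24 and 0.09 ± 0.24) and were higher in clone B in normoxia (1.82 ± 0.32 and 1.95 ± 0.28).

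The clone difference in normoxia came from other libraries and was called for 3697 genes (26.5%; 1839 or 13.2% higher, 1858 or 13.3% lower). There, 20 HIF list members were higher and 15 lower, with a median of −0.01. Of the 68 members lower in hypoxia, 15 were also called lower in normoxia. The hypoxia response of clone B minus that of parental cells was negative for 59 of the 92 members and positive for 1 (all tested genes: 3.24% and 1.49%), and 56 of the 68 were among the 59. The positive one was GYG1 (0.72 ± 0.15), at means of 127 CPM in normoxia and 68.6 CPM in hypoxia in parental cells, against 132 and 118 CPM in clone B. For VEGFA, parental cells went from 55.7 CPM in normoxia to the levels above, and clone B from 37.5 CPM, a response difference of −2.06 ± 0.19 (adjusted p = 5.5e-08). For PFKFB4 it was −2.86 ± 0.23 and for HK2 −2.52 ± 0.24.

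Over all genes the result was mixed: many genes called in hypoxia were also called in normoxia, and 2312 of the hypoxia calls were not. Genes called in both conditions numbered 2694, and 2645 of these had the same sign, which is 52.8% of the hypoxia calls and 71.5% of the normoxia calls. The hypoxia response differed for 660 genes (4.73%), 208 more positive and 452 more negative in clone B. Of the 5006 genes called in hypoxia, 530 (10.6%) also had a called response difference. Across genes the log2 differences in hypoxia and normoxia had a Spearman correlation of 0.66 (13943 genes, which are not independent replicates and share the clone and the fit).

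**Figure D3:**
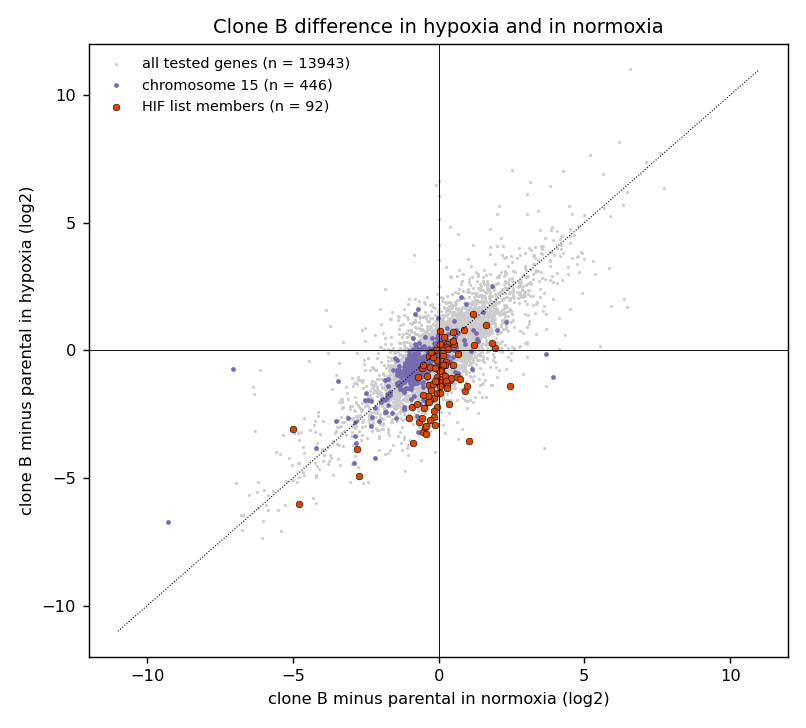
Each point is a tested gene, with the log2 difference clone B minus parental in normoxia on the horizontal axis and in hypoxia on the vertical axis; the dotted line marks equal differences. Most genes scatter along the line, HIF list members (orange, 92) lie mainly below it near 0 in normoxia, and chromosome 15 genes (violet, 446) lie mainly on the negative side of both axes.

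Apart from members of the HIF lists, the most negative response differences among genes called in hypoxia were those of NPR3, the clearance receptor for natriuretic peptides (−3.01 ± 0.33), GNG4, a G protein gamma subunit (−3.01 ± 0.31), and FAM13A (−2.84 ± 0.22). All 3 were lower in clone B than in parental cells in hypoxia and higher in normoxia. The most positive were HDGFL3, TBX2, CDH1, CACNA1G and GREM1, with HIF1A the sixth. GREM1, a secreted BMP antagonist on chromosome 15, was at 2.76, 2.67 and 4.50 CPM in parental cells and at 9.63, 8.06 and 8.88 CPM in clone B in hypoxia (1.42 ± 0.35), and its normoxia difference did not pass (−0.80 ± 0.35, adjusted p = 0.101). TBX2, a T-box repressor, was at 13.9 to 17.2 CPM in parental cells and 29.2 to 41.1 CPM in clone B (1.16 ± 0.27).

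Of 14 listed AHR targets 7 were tested, and each of the 7 was lower in clone B, with a median of −1.94 (all tested genes lower: 19%). Without replicate 1 of clone B, 5 of the 7 were called. CYP1B1 (chr2:38066973-38109902, minus strand) was among the steepest falls of all genes. It was at 609, 604 and 567 CPM in parental cells and at 3.18, 6.72 and 3.75 CPM in clone B (−7.03 ± 0.30, adjusted p = 8.94e-16), and in normoxia at means of 264 and 2.45 CPM (−6.75 ± 0.30). TIPARP, a poly-ADP-ribose polymerase that limits AHR, was at 132 to 139 CPM against 33.5 to 37.9 CPM (−1.94 ± 0.10, adjusted p = 5.31e-14), with a smaller difference in normoxia (−0.69 ± 0.10). CYP1A1, on chromosome 15, had under 1.2 CPM in each library (−1.96 ± 0.59), and its call was lost without replicate 1 of clone B (adjusted p = 0.0662). NQO1 (−0.58 ± 0.14), NFE2L2 and STC2 were lower as well, STC2 (−1.41 ± 0.09) being also a HIF list member. SERPINB2 had 38 counts in parental cells and 2 in clone B, a 17.1-fold lower ratio (95% exact binomial interval 4.43 to 147, counting error only), and lost its call without any 1 of 4 libraries.

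Of 12 clock output genes, 5 were higher and 1 lower (all tested genes: 16.9% higher, 19% lower). The nuclear receptor NR1D2, a repressor of the clock, was at 31.5 to 34.5 CPM in parental cells and 69.3 to 91.1 CPM in clone B (1.23 ± 0.17, adjusted p = 1.36e-06), and NR1D1 (0.70 ± 0.17), CIART (1.05 ± 0.19) and CRY1 (0.31) were higher too. NFIL3 was the lower one (−0.63). HLF had 2 counts in parental cells and 19 in clone B, a ratio of 10.5 (interval 2.54 to 93.3), and lost its call without replicate 1 of clone B (adjusted p = 0.0892) or parental replicate 2 (0.0544). CRY1 lost its call without replicate 3 of clone B (0.0578). These genes cycle over the day, and whether the groups were collected at the same hour was not tested.

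Fatty acid synthesis was lower in clone B: 10 of 15 genes were lower and 0 higher (all tested genes: 19% lower, 16.9% higher), with a median of −0.58. SCD, the stearoyl-CoA desaturase, was at 8652, 7770 and 8503 CPM in parental cells and at 2109, 2849 and 3047 CPM in clone B (−1.64 ± 0.14, adjusted p = 4.79e-10). Its regulator SREBF1 (−1.51 ± 0.17), FADS2 (−1.33 ± 0.14) and FASN (−0.88 ± 0.13) followed the same direction. Of 22 cholesterol genes, 9 were lower and 1 higher. The lower ones include INSIG1 (−1.03 ± 0.16), a sterol-sensing brake on the pathway, STARD4 (−0.75 ± 0.19) and MVD (−0.74 ± 0.19).

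Amino acid and stress genes under ATF4 were mostly not separated in hypoxia. Of 32, 2 were higher and 8 lower, with a median of −0.10, and both higher calls were lost without replicate 2 of clone B. In normoxia 21 of the same genes were higher in clone B and 3 lower (all tested genes: 13.2% and 13.3%), with a median of 0.64. A more negative hypoxia response was called for 14 (all tested genes: 3.24%). The lower genes in hypoxia include DDIT4 (−2.21 ± 0.15) and STC2, also HIF list members, and the amino acid transporter SLC7A5 (−1.04 ± 0.16). In the unfolded protein response 2 of 20 were higher, among them the chaperone HSPA5 (0.48 ± 0.09), and 4 were lower, led by EDEM1 (−1.07 ± 0.10), against 16.9% and 19% of all tested genes. Of 18 NRF2 targets, 6 were lower, including TXNRD1 (−1.03 ± 0.12) and HMOX1 (−1.02 ± 0.24), and 1 was higher, AKR1B10, at under 0.45 CPM in each library.

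Genes that display peptides to T cells were mostly lower: 12 of 13 tested genes of MHC class I presentation were lower and 0 higher (all tested genes: 19% lower, 16.9% higher). The median was −0.88, and 9 to 12 were called when 1 library was left out. HLA-B was at 68.7, 70.7 and 75.1 CPM in parental cells and at 31.1, 27.3 and 27.6 CPM in clone B (−1.32 ± 0.17, adjusted p = 6.12e-07). HLA-C (−1.45 ± 0.18), HLA-F (−2.42 ± 0.32), the trimming peptidase ERAP2 (−2.11 ± 0.14) and the transactivator NLRC5 (−1.30 ± 0.27) were lower, and HLA-E did not pass. HLA genes are similar in sequence and variable between people, so reads can be shared among them. B2M, the invariant light chain, was lower too (−0.74 ± 0.10), and it lies on chromosome 15. In normoxia 9 of the 13 were lower (all tested genes: 13.3%).

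Of 20 interferon-stimulated genes, 10 were lower and 0 higher, with a median of −0.66. OASL was at 15.6 to 17.1 CPM in parental cells and 1.44 to 2.51 CPM in clone B (−2.94 ± 0.26, adjusted p = 9.51e-10), and the RNA sensor IFIH1 at 19.1 to 20.9 against 3.93 to 6.30 CPM (−2.07 ± 0.15). ISG15 and STAT2 did not pass. In normoxia 11 of the 20 were lower (all tested genes: 13.3%), with a median of −0.58. Of 19 cytokine genes and NF-kB targets, 3 were higher and 5 lower, near the shares over all tested genes (16.9% and 19%). The monocyte attractant CCL2 was at 515, 574 and 468 CPM in parental cells and at 49.5, 47.2 and 73.7 CPM in clone B (−3.19 ± 0.54, adjusted p = 3.52e-05). IL11, a cytokine of the IL6 family, was at 1.18 to 1.41 CPM against 12.7 to 20.0 CPM (3.76 ± 0.27, adjusted p = 1.69e-11). PTGS2, which encodes cyclooxygenase-2 (3.08 ± 0.58), and CCL20 (2.93 ± 0.73) were higher at low levels.

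DNA replication genes were higher in clone B in hypoxia. Of 29, 18 were higher (all tested genes: 16.9%) and 3 lower, with a median of 0.48. In normoxia 2 were higher and 5 lower (all tested genes: 13.2% and 13.3%). RRM1, the large subunit of ribonucleotide reductase, was at 141, 141 and 147 CPM in parental cells and at 244, 313 and 284 CPM in clone B (0.97 ± 0.14, adjusted p = 2.83e-06), with a response difference of 0.81 ± 0.19. GINS4 (0.96 ± 0.12), PRIM1 (0.97 ± 0.13, 21.6% of its exonic length shared) and MCM10 (0.76 ± 0.18) were higher. MCM5 (−0.75 ± 0.16), RRM2 (−0.37 ± 0.15) and TYMS (−0.35 ± 0.11) were lower. Without replicate 1 of clone B, RRM2 (adjusted p = 0.089) and TYMS (0.1225) lost their calls, and RRM2 did so without 4 of the other 5 libraries too.

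Mitosis genes depended on the library. With all libraries, 10 of 24 were higher and 2 lower (all tested genes: 16.9% higher, 19% lower), but the libraries of clone B differed among themselves. The list summed to 4058 to 4195 CPM in the parental libraries, 4048 CPM in replicate 1 of clone B, and 5809 and 5162 CPM in replicates 2 and 3. Without replicate 2 of clone B, 4 members were called higher and 3 lower, and without replicate 1, 15 were called higher and 0 lower. CDK1, the mitotic kinase, was at 101 to 109 CPM in parental cells and at 164, 243 and 174 CPM in clone B (0.89 ± 0.28), and without replicate 2 it did not pass (0.69, adjusted p = 0.0924). TOP2A (0.66 ± 0.19) and KIF11 (0.61 ± 0.21) also lost their calls without it, and KIF11 did so without any 1 parental library too (adjusted p up to 0.0623). Of 14 genes of the G1 phase, 6 were higher and 2 lower. The cyclin CCND1 was at 192 to 199 CPM in parental cells and at 665, 505 and 430 CPM in clone B (1.45 ± 0.14, adjusted p = 7.17e-09), and the CDK inhibitor CDKN1A at 98.5 to 107 against 151 to 196 CPM (0.70 ± 0.17).

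Of 32 nuclear-encoded respiratory chain genes, 12 were higher and 2 lower (all tested genes: 16.9% and 19%), with a median of 0.31, and 8 were called higher without replicate 2 of clone B. ATP5MC1, a subunit of the ATP synthase rotor, was at 80.6 to 92.9 CPM in parental cells and 128 to 149 CPM in clone B (0.65 ± 0.15), and NDUFB3 of complex I was higher by 0.64 ± 0.16, with 19.8% of its exonic length shared. COX6A1 had the largest log2 difference of the list (1.92 ± 0.57), at under 0.28 CPM in each library, and lost its call without parental replicate 2 (adjusted p = 0.0624) or 3 (0.0536). COX5A was lower (−0.55 ± 0.13) and lies on chromosome 15. Of 13 genes of the mitochondrial genome, MT-ND2 was called (0.58 ± 0.16), and its call was lost without parental replicate 1. Of 7 tested genes of metallothioneins, which bind zinc and copper, and of the zinc response, 4 were higher and 1, the zinc exporter SLC30A1 (−0.73 ± 0.18), was lower. The list summed to 205.9 to 216.6 CPM in the parental libraries and 297, 260.4 and 218.2 CPM in those of clone B. MT2A was at 36.5 to 46.8 CPM in parental cells and 103 to 145 CPM in clone B (1.53 ± 0.22, adjusted p = 3.6e-06), and MT1A at 2.41 to 3.24 against 16.3 to 19.6 CPM (2.69 ± 0.20). The metallothioneins are near-identical copies, so reads may be split between them.

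**Figure D4:**
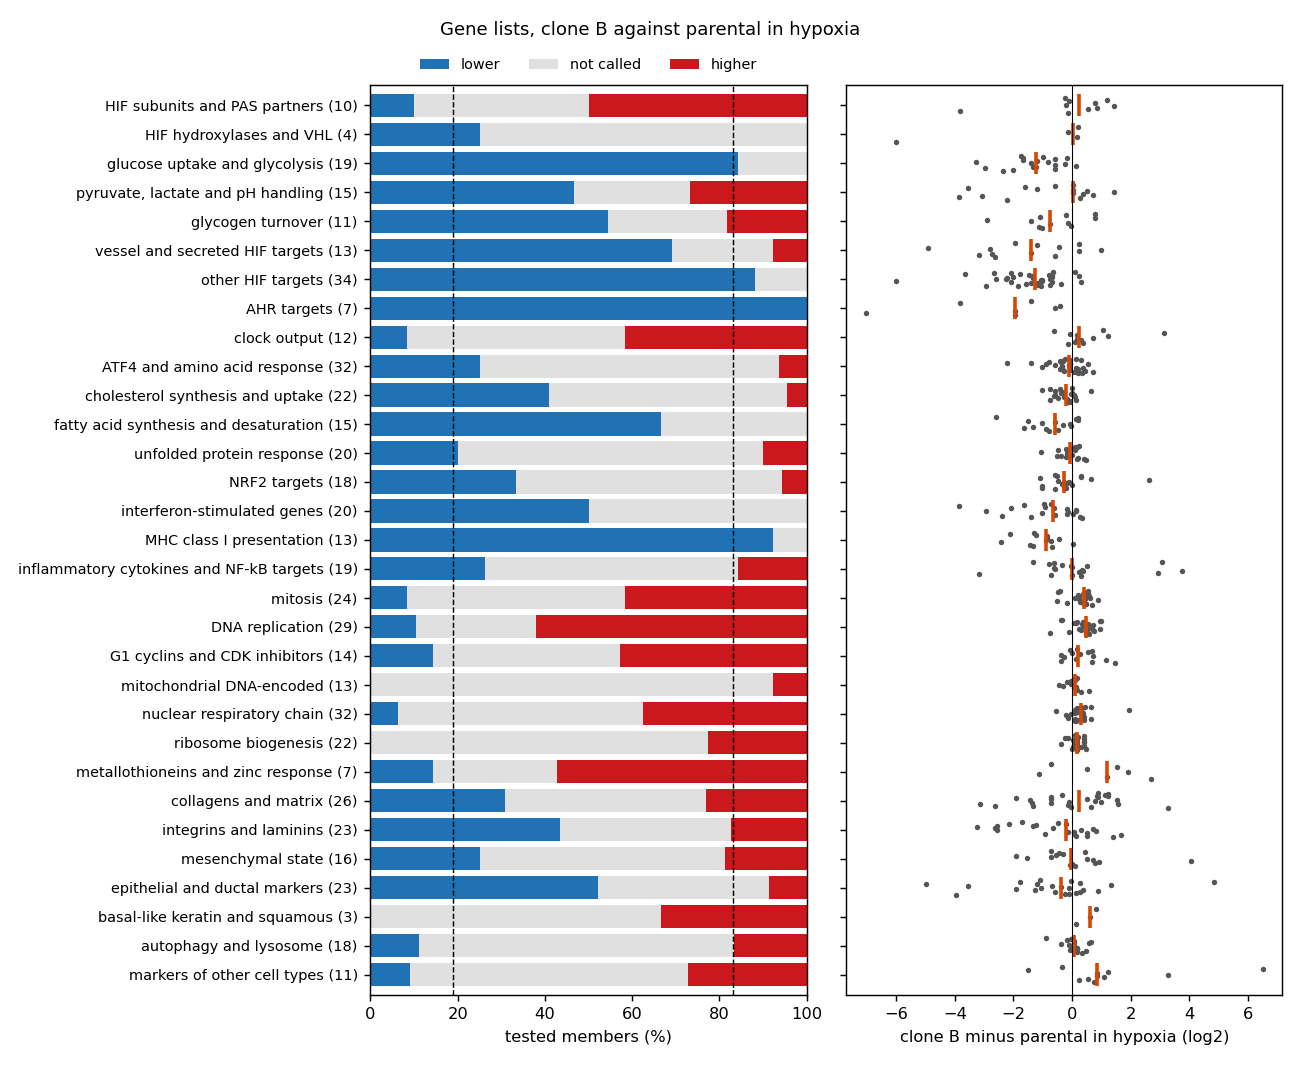
Left, the share of tested members of each of the 31 lists called lower (blue), not called (grey) or higher (red) in clone B in hypoxia; dashed lines mark the shares over all tested genes, 19% lower and 16.9% higher. Right, the log2 difference of each member, with the list's median as an orange bar. Glycolysis, other HIF targets, AHR targets and MHC class I presentation are mostly blue, and DNA replication is mostly red.

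Of 26 collagen and matrix genes, 6 were higher, 8 lower and 12 not called (all tested genes: 16.9% higher, 19% lower), with a median of 0.23 that was −0.09 without the genes of chromosome 15. COL1A1, the alpha-1 chain of type I collagen, was at 67.4, 68.1 and 72.2 CPM in parental cells and at 632, 716 and 633 CPM in clone B (3.25 ± 0.21, adjusted p = 3.99e-12). COL5A2 ran the other way, at 451 to 471 CPM against 48.1 to 56.5 CPM (−3.14 ± 0.12, adjusted p = 7.58e-17). Basement membrane collagens COL4A2 (−2.62 ± 0.28) and COL4A1 (−1.32) and the matrix glycoprotein SPARC (−1.91 ± 0.19) were lower. COL1A1 is also a fibroblast marker. The other 2 fibroblast markers read, LUM and DCN, did not pass (0.84 ± 0.46 and 1.22 ± 0.60), although the groups did not overlap in either. LUM was at 0.754 to 0.854 CPM in parental cells and 1.295 to 1.68 CPM in clone B. DCN was at 1.36 to 2.47 CPM in parental cells and 3.03 to 6.13 CPM in clone B. Both passed when only the compared libraries were fitted (adjusted p = 0.00991 and 0.00618). Of 11 tested markers of other cell types, 3 were higher and 1 lower, and their part in these results was not tested. The higher ones besides COL1A1 were CD68 (0.76 ± 0.16), which tumour cells also express, and ALB, at 0.0589, 0.0595 and 3.23 CPM in clone B, whose call was lost without replicate 3 of clone B (adjusted p = 0.516). MBP was the lower one (−0.35 ± 0.12), and lost its call without replicate 1 (adjusted p = 0.136) or 2 (0.0567) of clone B or parental replicate 1 (0.0672).

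Of 23 integrin and laminin genes, 10 were lower, 4 higher and 9 not called (all tested genes: 19% lower, 16.9% higher), and the list's sums overlapped (5014 to 5355 CPM in parental cells, 4978 to 5209 CPM in clone B). ITGB4, the beta subunit of hemidesmosomes, was at 16.6 to 20.5 CPM in parental cells and 3.09 to 3.27 CPM in clone B (−2.57 ± 0.17, adjusted p = 4.28e-12), and LAMA3 at 4.05 to 5.45 against 0.294 to 0.690 CPM (−3.23 ± 0.30). Of 23 epithelial and ductal genes, 12 were lower and 2 higher. E-cadherin, CDH1, was at 31.1, 25.4 and 34.6 CPM in parental cells and at 1.94, 1.84 and 2.01 CPM in clone B (−3.97 ± 0.17, adjusted p = 7.37e-16). The epithelial transcription factor ELF3 (−4.97 ± 0.27) and the splicing factor ESRP1 (−3.54 ± 0.27) were lower, while KRT8, KRT18 and EPCAM did not pass.

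In the mesenchymal list 3 of 16 genes were higher and 4 lower, near the shares over all tested genes (16.9% and 19%). SNAI2, a repressor of epithelial genes, was at 0.226 to 0.422 CPM in parental cells and 4.14 to 7.48 CPM in clone B (4.06 ± 0.34, adjusted p = 2.96e-10), and SNAI1 at 10.9 CPM in each parental library and 17.7 to 24.8 CPM in clone B (0.93 ± 0.24). VIM and CDH2 did not pass. MMP2, a gelatinase, was lower (−1.54 ± 0.12). In normoxia CDH1 was lower by more (−5.57 ± 0.18), with parental means of 60.0 CPM in normoxia and 30.4 CPM in hypoxia, and the test of the response passed (1.60 ± 0.23).

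The largest rises were in genes nearly unread in parental cells. TRPV6, an epithelial calcium channel, had 0 counts in the 3 parental libraries and 833 in clone B, at 10.0, 7.79 and 6.37 CPM, at least 307.9-fold higher against a floor of 3 counts over the group. TRBC2, a constant segment of the T cell receptor beta locus, was at 0.0251 to 0.141 CPM against 13.8 to 17.5 CPM (7.74 ± 0.27), and EPHB6, an ephrin receptor without kinase activity, at 0.176 to 0.590 against 60.5 to 75.1 CPM (7.38 ± 0.32). These 3 lie close together on chromosome 7 (TRBC2 at chr7:142801041-142802748, EPHB6 at chr7:142855061-142871094, TRPV6 at chr7:142871203-142885762). TRBV30, a variable segment between TRBC2 and EPHB6, was listed at 0 in the parental libraries and was called higher, at 0.110 to 0.412 CPM in clone B (DESeq2: adjusted p = 0.165). KEL, GSTK1, TMEM139 and CASP2, the tested genes that follow at chr7:142941114-143307696, did not pass. PTPRC, the pan-leukocyte gene, was at 0.0281 to 0.238 CPM in the 6 libraries, and the source of the T cell receptor reads was not tested.

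Further large rises were in MAF, a leucine zipper transcription factor (0.0502 to 0.253 against 8.48 to 14.9 CPM), SEL1L3 (1.16 to 2.02 against 73.8 to 76.4 CPM), the muscle repeat protein gene ANKRD1 (2.64 to 3.80 against 90.8 to 182 CPM), the cationic amino acid transporter SLC7A2, GNG2, GALNT16, SCARA5, PLAC1 and NLGN1, at log2 differences of 4.53 to 6.36. All 12 were also higher in normoxia. The largest falls besides CYP1B1 and EGLN3 were in UPK1B, a urothelial membrane protein (17.6 to 18.6 against 0 to 0.221 CPM), GLI3, a transcription factor of Hedgehog signalling (5.48 to 5.93 against 0 to 0.118 CPM), HDGFL3, COL26A1, the potassium channel KCNK3, BMP5, CCM2L, ZNF704, GRIN2A and the drug efflux pump ABCG2 (85.8 to 90.3 against 1.46 to 2.09 CPM, −5.68 ± 0.20). These 12 were also lower in normoxia, and in clone A in hypoxia they were lower than in parental cells (log2 −10.31 to −3.92). HDGFL3 lies on chromosome 15.

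Genes on chromosome 15 were lower together. Of 446 tested genes there, 294 were lower (65.9%; all tested genes: 19%) and 16 higher (3.59%; all tested genes: 16.9%), with a median of −0.66 and a middle range of −0.99 to −0.34. Over the other 13497 genes, 2357 were lower (17.5%), 2339 higher, and the median was 0.03. The chromosome took 3.85%, 3.85% and 3.83% of all counts in the parental libraries and 2.51%, 2.49% and 2.51% in those of clone B. The 2 groups did not overlap in this share, and each library of a group was within 0.03 percentage points of the others.

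The shift ran along the whole chromosome and was present at both oxygen levels. In consecutive bins of 40 tested protein-coding genes, all 11 bins of chromosome 15 had medians between −0.91 and −0.47, and 8 of them were among the 11 lowest of 345 bins. In normoxia the chromosome's median was −0.67, and 257 of the 294 genes were also lower. Over all hypoxia calls, 52.8% were called with the same sign in normoxia. On the chromosome, 29 of 446 (6.5%, all tested genes: 4.73%) had a called response difference. The share of counts in normoxia was 3.57% to 3.602% in parental cells and 2.36% to 2.40% in clone B. Outside chromosome 15, 6 of 334 bins were as low as its highest bin. These were the start of chromosome 16 (bin medians −0.66 at chr16:46407-1080142 and −0.65 at chr16:1153121-2196525), chr2:121216587-135531236 (−0.64) and the bin after it (−0.50), the start of chromosome 7 (−0.55 at chr7:192969-6009125) and chr18:12328944-31042815 (−0.49). The bins were drawn after the chromosome medians had been seen. DNA content was not measured in this series, and its part in these values was not tested.

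**Figure D5:**
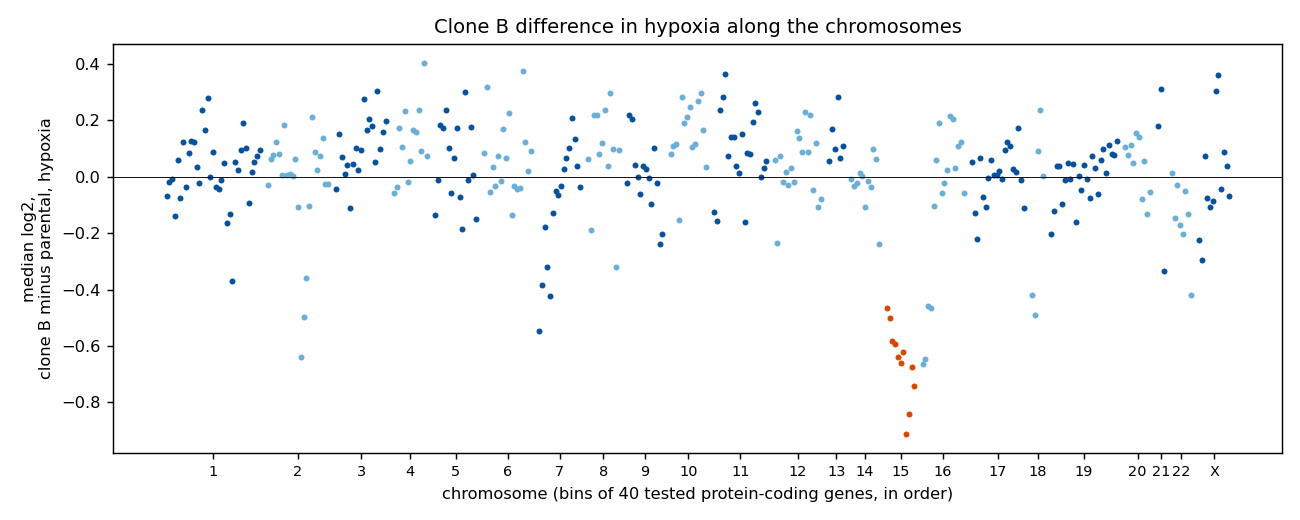
Median log2 difference, clone B minus parental in hypoxia, in consecutive bins of 40 tested protein-coding genes, in order along the chromosomes; chromosome 15 is orange. Its 11 bins lie between −0.91 and −0.47, and the other bins reach from −0.66 to 0.40.

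Chromosome 15 held few members of the lists above, namely ARNT2, PKM, CA12, RORA, CYP1A1, B2M, COX5A, TJP1 and CCNB2 among those called lower, of which CCNB2 (adjusted p = 0.0665) and CYP1A1 lost their calls without replicate 1 of clone B. The glycolysis count without it was 15 of 18, that of MHC class I presentation 11 of 12 and that of AHR targets 6 of 6. Refitting without the genes of the chromosome is given among the alternatives.

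Clone A against parental cells in hypoxia uses the same 3 parental libraries, so its values are given side by side and not as a second sighting. It was called for 5770 genes (41.4%; 2859 or 20.5% higher, 2911 or 20.9% lower). Of the 92 HIF list members, 76 were lower and 6 higher in clone A, with a median of −1.22. ARNT2 (−5.41 ± 0.27) and EPAS1 (−0.88 ± 0.14) were lower in clone A than in parental cells, and HIF1A was higher (0.79 ± 0.16). On chromosome 15 the median was −0.55 in clone A, and its libraries gave 2.44% to 2.48% of counts there. Tested directly, clone B differed from clone A in 3506 genes (25.1%; 1802 or 12.9% higher, 1704 or 12.2% lower). Of the HIF list members, 26 were higher and 7 lower in clone B than in clone A, with a median of 0.10.

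The clones differed from each other in several of the features described for clone B. The chromosome 7 neighbours were higher in clone B than in clone A, at 5.15 ± 0.27 for EPHB6 and 5.46 ± 0.22 for TRBC2, and clone A was itself above parental cells for EPHB6 (2.24 ± 0.35), TRBC2 (2.28 ± 0.41) and TRPV6 (8 counts against 0, adjusted p = 0.0108). The TRPV6 call rests on few counts: clone A in hypoxia was at 0.0298 to 0.126 CPM, within the 0 to 0.154 CPM of parental cells in normoxia (6 counts). Also higher in clone B than in clone A were GNG2 (6.07 ± 0.55) and TNFRSF9, a T cell costimulatory receptor (5.07 ± 0.28). HIVEP3, a zinc finger protein gene, was at 23.7 to 26.03 CPM in parental cells, 38.6 to 41.7 CPM in clone B and a mean of 1.30 CPM in clone A (4.95 ± 0.17 between the clones). CYP1B1 was lower in clone B than in clone A, whose mean was 39.3 CPM (−3.11 ± 0.26). Further genes lower in clone B than in clone A were SFMBT2, SLITRK2, the potassium channel KCNJ2, NPR3 and SEMA3D (−4.06 to −2.87). COL1A1 was at a mean of 113 CPM in clone A (2.54 ± 0.21 between the clones). Mitosis genes were lower in clone B than in clone A for 19 of 24 (all tested genes: 12.2%), with a median of −0.60, and DNA replication genes for 16 of 29. CDH1 (−0.19 ± 0.18), EGLN3 (0.49 ± 0.29) and ARNT (−0.08 ± 0.09) did not pass between the clones.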

How the data were processed

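Per the labels, polyA RNA of Panc1 cells was sequenced. The authors deposited 1 table of raw read counts per gene for 27 libraries in 9 groups of 3. The submitters' processing notes name HISAT2, featureCounts and GRCh38; of these, the sources used here give no version, strand or setting. All 27 libraries (26057022 to 38341713 counts) entered 1 fit in edgeR 4.0.16 (R 4.3.3, limma 3.58.1) with 1 coefficient per group, so that all groups share 1 estimate of the spread. Genes were kept by filterByExpr (minimum count 10, total 15), libraries scaled by TMM, and groups compared by robust quasi-likelihood F tests with Benjamini-Hochberg adjustment over 13943 genes, called at 0.05; 7544 genes were not tested. Log2 values carry the standard error of the fit, and CPM are TMM-scaled. The script was tested on simulated data. DESeq2 1.42.0 and other settings served as alternatives. A symbol was found for 21409 of 21487 identifiers in GENCODE v29 (GRCh38), from which shared exonic length was also computed, on either strand.

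The members and lists were chosen with earlier results of these data known. The text names ARNT and the tested HIF subunit and hydroxylase genes; the 12 largest rises and falls among called genes whose groups did not overlap and reached a mean of 5 CPM in 1 of them; per list the 4 called members with the largest differences, and every higher HIF list member; and the 6 most positive and negative called differences of the hypoxia response and between clones. The differences of the hypoxia response and between clones were taken under the same limits as the rises and falls. The other genes named, such as VEGFA, LDHA, FASN and NLRC5, were chosen after their values were seen. The replicate numbers did not pair the libraries. Libraries in TIFM medium entered the fit and are not compared here. Some genes that the naming rule or the lists include are not reported here.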

Additional observations from a re-analysis of the deposited data

Results flagged for a closer look

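The clone difference depended on oxygen for 660 genes, by the test of clone B's hypoxia response minus that of parental cells (edgeR, adjusted p under 0.05). Among genes also called in hypoxia, the most negative of these response differences were PPP1R3C (log2 −3.86), NPR3 (−3.01), GNG4 (−3.01), PFKFB4 (−2.86), FAM13A (−2.84) and PPFIA4 (−2.77). The most positive were HDGFL3 (2.57), GREM1 (2.22), CACNA1G (1.66), CDH1 (1.60), TBX2 (1.55) and HIF1A (1.44). HDGFL3 was at 0.0279 CPM in clone B in normoxia and 0.0589 to 0.208 CPM in hypoxia, so its value rests on few counts.

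The clones themselves differed in 3506 genes in hypoxia. Under the same limits, applied to clone B against parental cells, the most negative differences of clone B from clone A were SFMBT2 (−4.06), SLITRK2 (−3.76), KCNJ2 (−3.70), NPR3 (−3.61), CYP1B1 (−3.11) and SEMA3D (−2.87). The most positive were TRPV6 (6.53), GNG2 (6.07), TRBC2 (5.46), EPHB6 (5.15), TNFRSF9 (5.07) and HIVEP3 (4.95). Groups held 3 libraries, too few for the test of single outlying samples.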

How the results depend on the processing

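With 15 other settings run, 161 of 183 called genes, those of the naming rule and the others named, kept their call in each, and none of the 183 changed direction. Of the other 22, 21 lost it without 1 library, among them AHR, CYP1A1, SERPINB2, PDP2, CDK1, KIF11, RRM2, TYMS, KRT19, MBP, ALB and MT-ND2, and TRBV30 lost it under DESeq2. RRM2 also lost it under RLE scaling, library totals and no filter. Of genes not called, 3 changed sign without 1 library: CXCR4 ranged from −0.0324 to 0.168, HLA-E from −0.0209 to 0.0894 and KEL from −0.48 to 0.53. EPAS1, DCN, LUM, EPCAM, GSTK1, ISG15, JMJD6 and PFKFB2, not called, passed on the 18 libraries in regular medium and on the compared libraries alone. The fits on the 18 libraries in regular medium and on the compared libraries alone called more genes, and those leaving out 1 library called fewer; the cause was not tested. With the 18 libraries in regular medium, 3642 genes were higher in clone B in hypoxia, against 2355; 5707 were called in normoxia, 2300 for the response and 5930 between the clones. With only the libraries compared, these were 3633 higher, 5710 in normoxia and 2592 for the response. Leaving out each library in turn gave 4094 to 4320 calls in hypoxia (1836 to 2001 higher, 2217 to 2329 lower, 1728 to 1814 at least 2-fold), 2974 to 3184 in normoxia, 441 to 585 for the response, 4743 to 5519 for clone A and 2426 to 3196 between the clones. DESeq2 called 5261 genes in hypoxia and 968 for the response. Without the genes of chromosome 15, an alternative chosen after seeing the data, 4629 were called. Same-numbered libraries did not deviate together (r = −0.0282, −0.0193 and −0.0632), and the fit with the replicate number as a block called 5101 genes. Of 31 list medians, 5 changed sign under some setting: inflammatory cytokines, hydroxylases, pyruvate handling, mitochondrial DNA and, without chromosome 15, collagens and matrix. Without 1 library, ribosome biogenesis fell from 5 higher members to 2 (without replicate 1 of clone B) and integrins and laminins from 4 to 2 (without replicate 2). Genes near 0 counts are limited by depth.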
